A study of Mus musculus with 6 samples.

Results

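Nono and Tsnax encode proteins that bind RNA. They are 2 of the 112 genes that could be named through a RefSeq transcript among the 59709 probes of the array. Both were selected on their log2 difference between wild-type and APP/PS1 brain in these same arrays, so their levels are given as a description, without a test. Nono was measured by 20 spots of 1 probe on every array and Tsnax by 1 spot.

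NONO belongs to the DBHS family of nuclear proteins, which pair with each other (NONO with SFPQ or PSPC1) through their RNA recognition motifs. It is a core protein of paraspeckles, nuclear bodies built on the long non-coding RNA Neat1 that retain RNAs and proteins in the nucleus. It also takes part in transcription, splicing, DNA repair and the circadian clock. TSNAX, also called TRAX, is the partner of the RNA-binding and DNA-binding protein translin. Together they form a ribonuclease known as C3PO, which removes the passenger strand of small interfering RNA during loading of the silencing complex, and in neurons the complex has been studied for its part in the handling of dendritic mRNA.

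The samples were total RNA from brain of 9-month-old male C57BL/6 mice, 3 of wild type (WT) and 3 of APP/PS1 genotype. APP/PS1 mice carry transgenes for mutant amyloid precursor protein and presenilin and develop amyloid plaques. The sources used here do not give the promoters of the transgenes, the brain region or any pooling of animals. Samples were labelled with Cy3 and hybridised singly to an array made mainly for long non-coding transcripts. Scanner signals were used for 5 arrays (WT replicates 1 and 2, APP/PS1 replicates 1, 2 and 3), and the authors' normalized value table covers all 6 samples. In that table WT replicates 2 and 3 differed by less than the noise between spots (scatter 0.0225 against 0.0494, log2) and were counted as 1 sample. Both WT arrays were on slide 1 and all 3 APP/PS1 arrays on slide 2, and genotype therefore cannot be told apart from slide. The APP/PS1 arrays were brighter: the 75th percentile of probe intensity was 392 and 394 on the WT arrays and 474, 516 and 506 on the APP/PS1 arrays. The tissue label could not be set against cell type markers, because none of the 27 markers listed for neurons, glia, vessels, choroid plexus and blood had a probe named here. Precision is limited by the small number of arrays.

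Nono RNA gave less signal in APP/PS1 brain than in WT brain on every array. The geometric mean of the processed intensity over its spots, without outlier spots, was 15810 in WT replicate 1 and 15990 in WT replicate 2. It was 12730, 13640 and 13460 in APP/PS1 replicates 1, 2 and 3. The groups did not overlap even before the arrays were scaled, although the APP/PS1 arrays were brighter as a whole. Lack of overlap was not particular to Nono. After scaling, 8 of the 14 other genes printed in 20 spots were lower and 3 were higher in APP/PS1 without overlap. The share over all probes is not given here. In these bulk samples, fewer cells of a type and less RNA per cell cannot be told apart.

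After scaling, with levels given in log2 units above each array's 75th percentile, Nono stood at 5.33 and 5.34 on the WT arrays and at 4.75, 4.73 and 4.73 on the APP/PS1 arrays. The WT mean was 5.34 ± 0.0055 (SD, n = 2) and the APP/PS1 mean was 4.74 ± 0.011 (SD, n = 3). The difference was -0.60 ± 0.07 (log2, moderated SE), or 1.52-fold lower in APP/PS1. In this scaling, replicates of 1 genotype thus lay far closer to each other than the genotypes did. As the genotypes lie on different slides, the part of the slide in this difference was not tested.

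The 20 Nono spots lie scattered over the array, and each has the same place on all 5 arrays. All spots were well above background on every array, with a median local background of 29 to 31.5 against mean signals of 12730 or more, and no spot was saturated. At 20 of 20 places the signal of all 3 APP/PS1 arrays was below that of both WT arrays, before scaling as well as after it. After scaling, the difference between genotypes ranged over the places from -0.72 to -0.53, with a median of -0.61. Without scaling it ranged from -0.38 to -0.19. The scaled level of the highest APP/PS1 spot was 4.89 and that of the lowest WT spot was 5.22, so single spots of the genotypes did not overlap. In unscaled intensity 1 of the 60 APP/PS1 spots, at 15250, exceeded the lowest WT spot at 14600. Within an array the spots scattered by 0.0513 to 0.0941 (SD, log2). The 20 spots of an array carry the same RNA sample and are not replicates of the genotype.

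**Figure D1:**
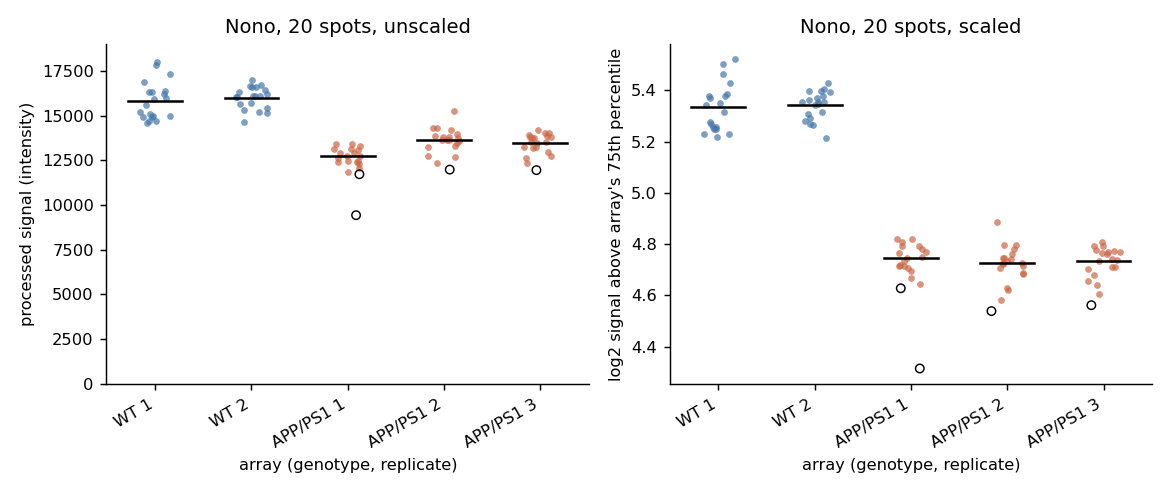
Nono signal on the 5 scanned arrays, 1 point per spot (20 per array), as processed intensity (left, linear axis from 0) and as log2 signal above the array's 75th percentile (right). Black bars are the arithmetic means of the spots used, on the axis of each panel. Open circles are the 4 spots marked as outliers by the scanner software and left out. The APP/PS1 arrays lie below the WT arrays in both panels, with group means of 5.34 and 4.74 after scaling.

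Tsnax was among the brightest probes of the array, above 98.5% of probes on both WT arrays and above 98.0% to 98.1% on the APP/PS1 arrays. Its processed intensity was 41400 and 41300 on the WT arrays and 45250, 43670 and 45490 on the APP/PS1 arrays. Unscaled, all 3 APP/PS1 arrays were thus above both WT arrays, by 1.08-fold on average. The scanner software assigned the spot an error of 10% of its signal on each array, the same as the median over the Nono spots. This error of a single array is larger than the 1.08-fold difference between the group means.

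Scaling turned the direction. In log2 units above the 75th percentile, Tsnax stood at 6.72 and 6.71 on the WT arrays and at 6.58, 6.40 and 6.49 on the APP/PS1 arrays. The WT mean was 6.72 ± 0.0087 (SD, n = 2) and the APP/PS1 mean was 6.49 ± 0.086 (SD, n = 3), a difference of -0.23 ± 0.08 (log2, moderated SE), or 1.17-fold lower in APP/PS1. The groups did not overlap, but the highest APP/PS1 array lay only 0.13 below the lower WT array. The probe has a single spot, and among the 9 genes printed in 20 spots that were at least as bright as Nono, single spots on 1 array scattered by a median of 0.0675 (SD, log2, range 0.0178 to 0.097).

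In the authors' value table, which holds the Tsnax spot but none of the Nono spots, Tsnax had log2 values of 15.51, 15.52 and 15.52 in WT replicates 1, 2 and 3 and of 15.2, 15.13 and 15.21 in APP/PS1 replicates 1, 2 and 3. With WT replicates 2 and 3 as 1 sample, the WT mean was 15.52 ± 0.0071 (SD, n = 2) and the APP/PS1 mean was 15.18 ± 0.044 (SD, n = 3). The difference was -0.34 ± 0.06 (log2, moderated SE), or 1.26-fold lower in APP/PS1. The value table is drawn from the same arrays, so this is another scaling of the same Tsnax measurement and not an independent one. Of its 48436 rows, 30.1% were called in either direction by limma at an adjusted p of 0.05. No call is given for Tsnax, because the gene was selected on this contrast.

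Under the other scalings both genes kept a lower mean in APP/PS1, but the size of the Tsnax difference depended on the scaling. Quantile normalization of the scanner signals gave -0.60 for Nono and -0.35 for Tsnax, and centring on the median probe gave -0.69 and -0.31. Background correction by normexp gave -0.42 for Nono and -0.02 for Tsnax, whose groups then overlapped. With normexp the WT arrays also lay further apart for Nono, at 5.08 and 4.88 (SD 0.14, n = 2). That correction also moved the median log2 difference over all tested probes to -0.22, from 0.04 with the 75th percentile. Relative to that shift, Tsnax would lie above the median probe and Nono below it. Without scaling, the median over all tested probes was 0.38, beside -0.26 for Nono and 0.12 for Tsnax.

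**Figure D2:**
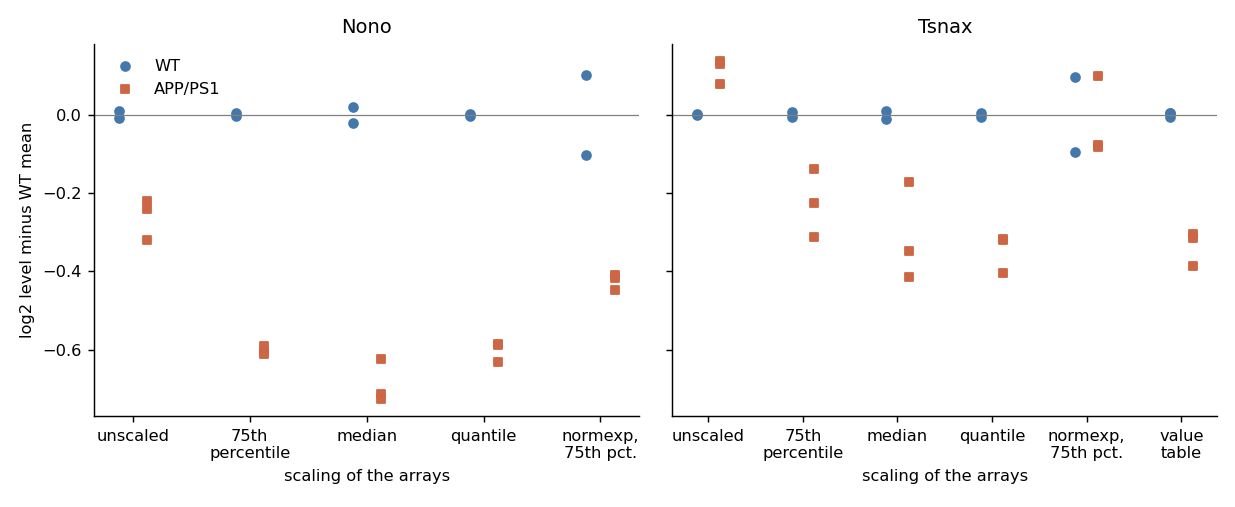
Level of Nono (left) and Tsnax (right) in each sample, as the log2 level minus the WT mean, under each scaling of the arrays; 1 point per sample, circles WT and squares APP/PS1. Nono in APP/PS1 lies below WT under each scaling shown, whereas Tsnax lies above WT unscaled (0.12), overlaps it under normexp (-0.02) and lies below it under the others.

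A comparison within arrays of processed signals is not altered by scaling each array with a single factor, such as its 75th percentile or median, but can be altered by quantile normalization or another background correction. The log2 signal of Nono minus that of Tsnax was -1.39 and -1.37 on the WT arrays and -1.83, -1.68 and -1.76 on the APP/PS1 arrays. The genotype difference of Nono minus that of Tsnax was thus -0.38 (log2), and the groups did not overlap. The signals of Nono and Tsnax therefore differed unequally between the groups of arrays, which does not say which transcript changed. Among probes of like brightness the median scaled difference was -0.002 at Nono's level and 0.09 at that of Tsnax. The part of brightness and of slide in the -0.38 was not tested. Against the mean of the 14 other genes printed in 20 spots, Nono stood at 0.63 and 0.63 (log2) on the WT arrays and at 0.05, 0.07 and 0.13 on the APP/PS1 arrays. Tsnax stood at 2.02 and 2.00 on the WT arrays and at 1.88, 1.75 and 1.89 on the APP/PS1 arrays by the same measure. The group means differed by -0.55 for Nono and by -0.18 for Tsnax.

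The 14 other genes printed in 20 spots are mostly housekeeping genes and were measured with the same number of spots as Nono. All 14 were well above background on all 5 arrays. In limma, 1 of 14 rose and 3 fell in APP/PS1, with 10 not past an adjusted p of 0.05, so 28.6% were called. Over all 45626 probes tested, 32.6% were called (18% higher and 14.6% lower in APP/PS1), so the share among these genes was near the background in this fit. With normexp 1 of 14 was called, beside 7904 of the 45626 probes. With 1 APP/PS1 array left out, 1 to 2 of 14 were called, beside 7598 to 10483 of all probes. Their median difference was -0.10 (log2), beside 0.04 over all tested probes. Among these 15 genes Nono had the lowest difference in the scaled signals, and also with median centring, quantile normalization, normexp and without scaling. As Nono was selected on this difference and the scalings use the same arrays, its rank is a description only.

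The genes nearest to Nono in this order were Hsp90ab1, a cytosolic chaperone, Actb, a cytoskeletal actin, and Gapdh, an enzyme of glycolysis. They fell by 0.33, 0.32 and 0.29 (log2, limma adjusted p = 0.0228, 0.0373 and 0.0398) in the scaled signals but had differences of 0.015, 0.02 and 0.05 without scaling. Hsp90ab1 stood at 6.96 and 6.97 on the WT arrays and at 6.66, 6.63 and 6.64 on the APP/PS1 arrays, without overlap. These 3 calls were lost with normexp, without the filter on dim probes and whenever any 1 of the 5 arrays was left out.

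Other genes of basic cell functions did not pass the threshold. Tbp, the TATA-binding protein, had a difference of -0.24 ± 0.07 (log2, SE), and Tuba1b, an alpha tubulin, of -0.22 ± 0.07; both were called as lower with quantile normalization only among the alternative scalings. Ppia, a peptidyl-prolyl isomerase, and Hprt, of purine salvage, had differences of -0.01 and -0.02, with groups that overlapped. The transferrin receptor gene Tfrc stood at -0.09, also with overlap. Rpl13a, a protein of the large ribosomal subunit, stood at 0.13. Gk (glycerol kinase), G6pd2 and Ldhal6b, the last 2 being copies of metabolic enzyme genes known from testis, stood at -0.10, -0.08 and -0.13. Several of these genes, such as Gapdh, Ppia and G6pd2, have near-identical copies or processed pseudogenes in the mouse genome, so their signal may include other transcripts.

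In the other direction, B2m, which encodes the small invariant subunit of class I histocompatibility molecules, stood at 6.49 and 6.48 on the WT arrays and at 7.05, 7.03 and 6.99 on the APP/PS1 arrays. It rose 1.45-fold (limma adjusted p = 0.00742) and stayed called with any 1 APP/PS1 array left out. With the replicate number fitted as a block, B2m lost its call. The lysosomal enzyme gene Gusb had levels of 1.91 and 2.00 in WT and of 2.58, 2.53 and 2.07 in APP/PS1. Its difference of 0.43 ± 0.18 (log2, SE) did not pass (adjusted p = 0.126), and APP/PS1 replicate 3 lay near the WT arrays; without that array Gusb was called.

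Without scaling, all 14 other genes were higher on the APP/PS1 arrays, from 0.015 (Hsp90ab1) to 0.88 (B2m), with a median of 0.25. Nono, at -0.26, was the only one of the 15 genes that was lower, which is a description only because Nono was selected on this contrast. The unscaled values include the difference in brightness between the slides.

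**Figure D3:**
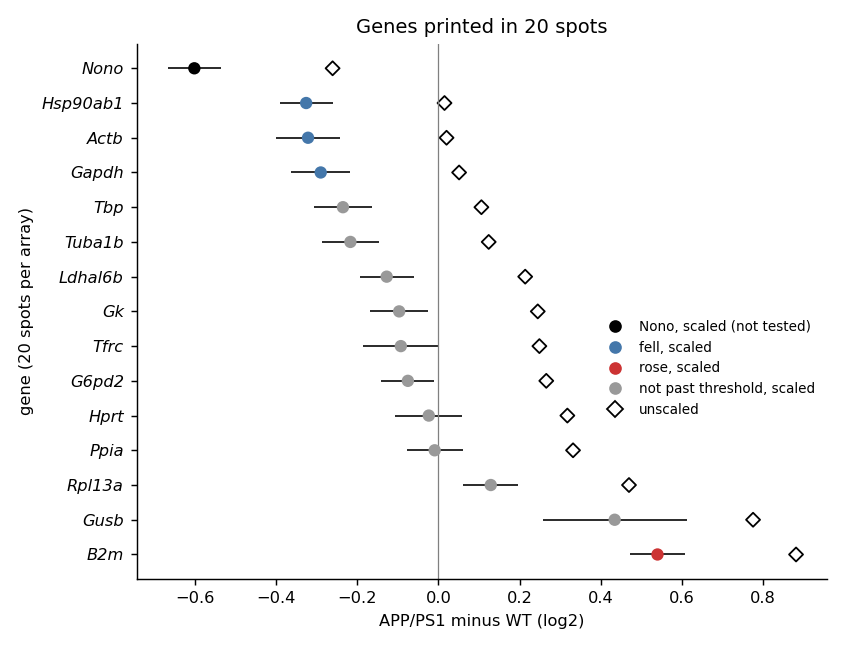
Difference between APP/PS1 and WT (log2) of the 15 genes printed in 20 spots. Filled circles are scaled signals with the moderated SE as bars (blue fell, red rose, grey not past an adjusted p of 0.05, black Nono, which was not tested), and open diamonds are unscaled signals. Nono, which was selected on this contrast, lies lowest by both measures, at -0.60 and -0.26, and is the only gene below 0 without scaling.

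Probes as bright as Nono or Tsnax gave the background at their level. Among the 38329 probes well above background on all 5 arrays, 672 others lay within 0.25 (log2) of Nono's mean level, and their median difference was -0.002, with quartiles of -0.22 and 0.22. For Tsnax, 352 probes lay as close to its level, with a median difference of 0.09 and quartiles of -0.11 and 0.29. Beside these values stand the differences of -0.60 for Nono and -0.23 for Tsnax in the same scaling; as both genes were selected on this difference, the setting beside other probes is a description only. The median difference moved upward among the brightest probes, from -0.005 in the bin around 4.5 to 0.10 in the bin around 6.5 and 0.18 in the bin around 7.5.

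**Figure D4:**
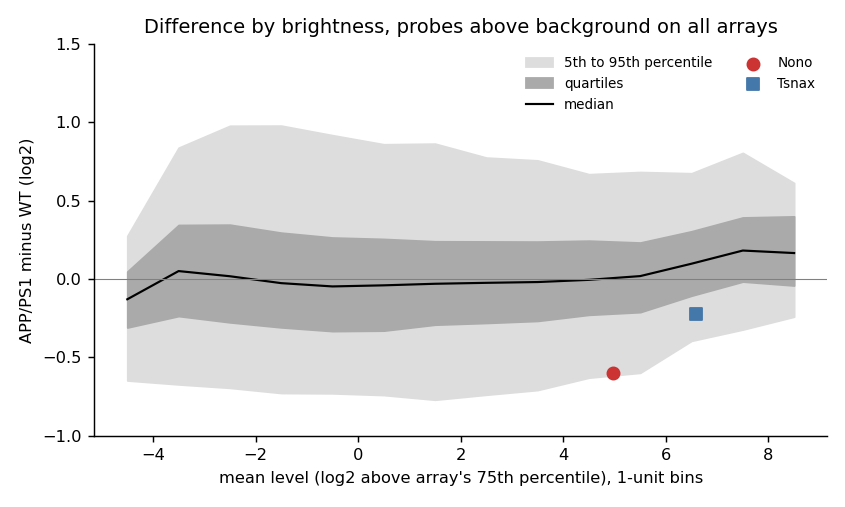
Difference between APP/PS1 and WT (log2, scaled) against mean level, in bins of 1 log2 unit with at least 198 probes each, over probes that every array measured well above background. The line is the median, the bands are quartiles and the 5th to 95th percentiles, and the marked points are Nono (circle, -0.60) and Tsnax (square, -0.23), which were selected on this difference.

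Among the other 83 genes with a RefSeq name that could be compared, those whose profile over the 5 arrays was nearest to that of Nono were Spry3, Gm21953, Gm16513, Vmn1r241 and H2al2b. Likeness was measured as the root mean square difference of the centred log2 levels, which a single scaling factor per array does not alter. It was 0.0787 for Spry3, a Sprouty family inhibitor of receptor tyrosine kinase signalling, and 0.0888, 0.0969, 0.112 and 0.125 for the others. Vmn1r241 is a vomeronasal receptor gene and H2al2b a histone variant gene. These 5 genes had differences of -0.73, -0.55, -0.70, -0.61 and -0.36 and mean levels from -2.74 to 1.58, far below the 4.98 of Nono. None of the other genes printed in 20 spots was among them.

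The genes nearest to Tsnax were Tmlhe, of carnitine synthesis, then Tuba1b, Tbp, Gapdh and Actb, with root mean square differences of 0.038, 0.0442, 0.0446, 0.0456 and 0.0643. Of these 5 genes, 4 belong to those printed in 20 spots. Their differences ran from -0.22 for Tuba1b to -0.32 for Actb, around the -0.23 of Tsnax. The profiles of Nono and Tsnax differed from each other by 0.19. All of these genes were picked for likeness over samples that include the genotype difference, so their differences support nothing further.

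**Figure D5:**
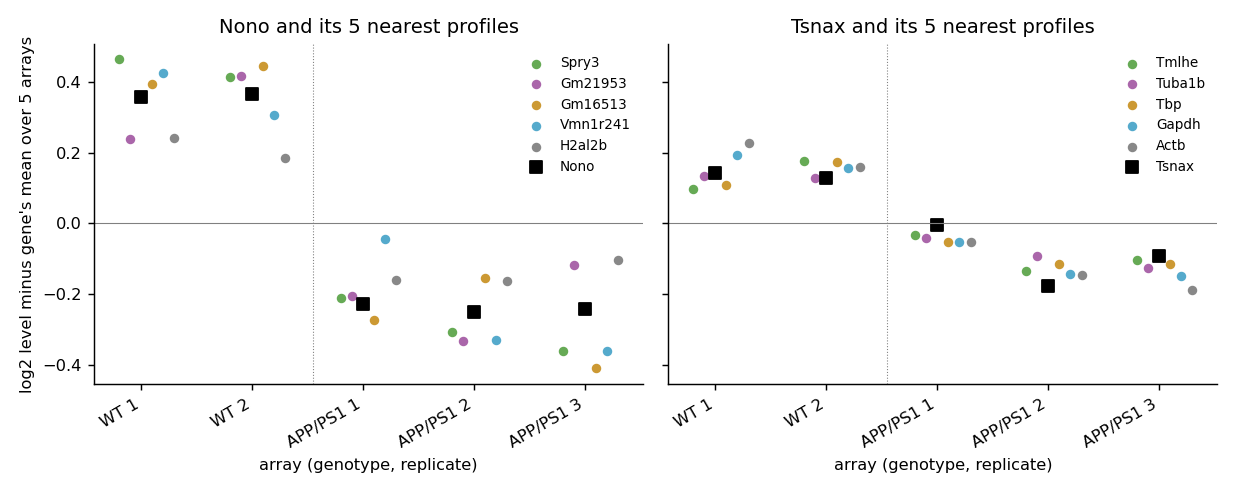
Log2 level minus the gene's mean over the 5 scanned arrays for Nono (left) and Tsnax (right), as black squares, with the 5 named genes of the most similar profile as coloured points; the dotted line separates WT from APP/PS1 arrays. Nono stands at 0.36 and 0.37 in WT and from -0.25 to -0.23 in APP/PS1, and Tsnax at 0.14 and 0.13 in WT and from -0.18 to -0.004 in APP/PS1.

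The known partners of both proteins could not be set beside them. None of 41 listed genes had a probe named here. The list covered the DBHS proteins and paraspeckle components (16 genes, with Sfpq, Pspc1 and Neat1), translin and the small RNA machinery (11 genes, with Tsn, Ago2 and Dicer1), DNA repair partners of NONO (5 genes) and clock and cAMP partners (9 genes). In the gene order of assembly GRCm38.p6, used for order only because the array was designed on another build, Nono lies between Zmym3 and Itgb1bp2, and Tsnax lies beside Disc1. None of the 20 nearest genes around Nono or the 20 around Tsnax had a named probe, so they were not analysed here. The RefSeq table lists 4 transcripts of Nono and 1 of Tsnax, and the probe of Nono carries the name of 1 of them, so transcript forms of Nono were not told apart.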

How the data were processed

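Spot intensity of 5 arrays came, per the file headers, from a mm9 array design; the signals had been background-subtracted and, on 3 arrays, detrended over the surface by Agilent Feature Extraction. The submitters' processing notes name its version as 11.0.1.1. WT replicate 1 is given to 3 significant digits. The authors' deposited table gives log2 values whose columns share their quartiles, by a normalization that the sources used here do not name. The labels' protocols describe Trizol extraction, removal of ribosomal RNA and random priming.

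Here log2 processed signals were scaled to each array's 75th percentile, outlier spots were left out and spots of a probe averaged. Probes well above background on at least 2 arrays entered the two-sided moderated test of limma 3.58.1 (R 4.3.3), with p adjusted by Benjamini-Hochberg over all probes and a threshold of 0.05; probes named as negative controls were left out. Standard errors are limma's moderated ones. The p-values set the difference between the groups against the spread between these samples, and do not separate genotype from slide. Steps were tested on simulated data. Named genes are Nono, Tsnax, all genes printed in 20 spots, listed partners and neighbours within 10 gene positions with a named probe, and the 5 nearest profiles of each member. Members, lists and tests were chosen with earlier results of these data known. Alternatives covered scaling, background, outliers, dim probes, replicate block and each sample left out.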

Additional observations from a re-analysis of the deposited data

How the results depend on the processing

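The Nono difference of -0.60 (log2) was lower in APP/PS1 under all 13 alternatives run. It was -0.69 with median centring, -0.42 with normexp, -0.62 with outlier spots kept, -0.26 without scaling and -0.59 on signals before detrending, an alternative chosen after seeing the data; leaving out 1 array gave -0.61 to -0.60. The Tsnax difference of -0.23 turned to 0.12 without scaling. It was -0.31 with median centring, -0.35 with quantile normalization and -0.02 with normexp, and -0.27 to -0.18 with 1 array left out. The 75th percentile was 0.34 (log2) higher on the APP/PS1 arrays, and scaling subtracts this shift from the unscaled difference. Why these arrays were brighter was not tested. In the value table the Tsnax difference stayed between -0.35 and -0.31 with 1 sample left out.

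The count of 14871 called probes in the scanner signals became 7904 with normexp and 7598 to 10483 with 1 array left out. Of the 14 other genes printed in 20 spots, 4 were called. With normexp 1 was called (B2m). Without the filter on dim probes 1 was called (B2m), beside 10610 of all probes. With 1 APP/PS1 array left out, 1 to 2 were called. The count of 14593 in the value table became 5725 to 9139 with 1 sample left out. Where 1 WT sample was left, its spread was taken to equal that of APP/PS1.

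In the value table, deviations of samples that share a replicate number had correlations of 0.0888, -0.0712 and -0.0822. As WT replicates 2 and 3 were nearly identical, these values rest on much the same WT contrast and cannot settle pairing. With the replicate number as a block, which leaves 1 residual degree of freedom, limma called 0 probes in the scanner signals (15349 at an unadjusted p under 0.05, smallest adjusted p 0.056) and 0 of the 14 genes, so that B2m too lost its call (2 at an unadjusted p under 0.05); Nono and Tsnax kept differences of -0.60 and -0.23. In the value table the block was fitted with WT replicates 2 and 3 as separate samples, which changes both choices at once and treats near-identical samples as independent. It called 15417 probes there, with a Tsnax difference of -0.34. Signal over background did not limit detection of Nono or Tsnax, which were well above it on all 5 arrays.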
